A study of Mus musculus with 7 samples.

Results

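The microRNAs described here are the miR-200 family together with miR-203, miR-205 and miR-375, all best known from epithelial cells, and they were followed in mouse CD4 T cells. The array carried 1874 small RNA probes, and its files pair none of them with a miRNA name. A probe was therefore assigned by the target it should capture, which is the reverse complement of the probe letters after removal of the last 10 T and of a leading G. Members were all probes whose target bases 2 to 8, the seed through which a miRNA finds its messenger RNAs, equal those of mature mouse miR-200a-3p (shared by miR-141), miR-200b-3p (shared by miR-200c and miR-429), miR-203-3p, miR-205-5p or miR-375-3p. This gave 21 of the 1874 targets: 3 with the miR-200a seed, 10 with the miR-200b seed, 3 with the miR-203 seed, 2 with the miR-205 seed and 3 with the miR-375 seed. Of the 21, 8 equal the mouse miRNA itself, 2 more lie inside a mouse hairpin but start or end elsewhere, and 11 lie in no mouse hairpin of the RefSeq table. Members that share most of their letters can capture the same RNA, so they are not independent measurements.

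Total RNA came from CD4 T cells with the transgenic receptor DO11.10, specific for a peptide of ovalbumin, from Balb/c mice 6 to 8 weeks old. Naive cells (2 arrays) were CD25 negative and CD44 low and came from DO11.10 mice with intact Rag2 (Rag2+/+). Activated cells were CD44 high and were recovered 5 days after CD4 cells of Rag2-/- DO11.10 donors had been injected into a recipient. Recipients were WT Balb/c mice (WT host, 2 arrays) or sOVA mice (sOVA host, 3 arrays). They received LPS-activated dendritic cells loaded with ovalbumin peptide 24 h after the transfer. The series title places the activation in vitro, whereas the protocols describe it in the animal. The titles describe the immunization of the host types in different words, so immunization and host cannot be told apart, and neither can activation and the Rag2 genotype of the donor. Spleens and lymph nodes were pooled, and no label says that replicates were separate pools, so the spread between arrays may be technical.

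The miR-200 family is encoded by a pair of clusters, and its members are known for holding cells in an epithelial state by repressing the transcription factors ZEB1 and ZEB2. miR-203 is known for restraining proliferation as keratinocytes differentiate, miR-205 is abundant in stratified epithelium, and miR-375 is known from pancreatic islets and other secretory epithelia. None of them is a defining miRNA of T cells. In bulk RNA, fewer cells of a type and less of the miRNA per cell cannot be told apart.

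The targets that equal the mouse miRNAs are shown because the results turn on them. They are written 5′ to 3′ as DNA with the seed in capitals, and they show how little separates family members outside the seed.
miR-200a-3p: tAACACTGtctggtaacgatgt
miR-141-3p: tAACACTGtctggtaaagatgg
miR-200b-3p: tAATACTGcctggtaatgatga
miR-200c-3p: tAATACTGccgggtaatgatgga
miR-429-3p: tAATACTGtctggtaatgccgt
miR-203-3p: gTGAAATGtttaggaccactag
miR-205-5p: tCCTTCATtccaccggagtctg
miR-375-3p: tTTGTTCGttcggctcgcgtga

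RefSeq (GRCm38.p6) places the mature miR-429, miR-200a and miR-200b at chr4:156053916-156053937, chr4:156054911-156054932 and chr4:156055685-156055706, in hairpins that together span 1846 bases on the minus strand. It places miR-141 and miR-200c at chr6:124717917-124717938 and chr6:124718324-124718346, in hairpins that span 477 bases on the minus strand. miR-203 lies at chr12:112130927-112130948 on the plus strand and miR-205 at chr1:193507503-193507524 on the minus strand. The mature mouse sequence was found in RefSeq for 7 of the 8 miRNAs. For miR-375-3p it was not, and its member was recognised as the target that lies in the 3′ part of the Mir375 hairpin (chr1:74900658-74900721, minus strand). Relative to miR-200a-3p, and counting from 1 at the 5′ end of the target, the miR-141-3p target carries C17A and T22G. The miR-200c-3p target carries T11G and A22G relative to miR-200b-3p and is 1 base longer.

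Of the 11 targets in no mouse hairpin, 5 gave signal, and they are named by their probe. UC1005233 extends miR-200b-3p by 1 base. The other 4 are near copies of a mouse target, carrying T22C relative to miR-200a-3p (UC1005100), A22C relative to miR-200b-3p (UC1005237), A21T relative to miR-203-3p (UC1005250), and T1C and G18A relative to miR-205-5p (UC1005256).
UC1005100: tAACACTGtctggtaacgatgc
UC1005237: tAATACTGcctggtaatgatgc
UC1005250: gTGAAATGtttaggaccacttg
UC1005256: cCCTTCATtccaccggaatctg

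A target was called detected on an array where at least 50% of its 7 spots were well above background. Of the 21 members, 13 were detected on at least 1 array and none on all 7. Naive replicate 1 detected 9 and naive replicate 2 detected 11, WT host replicate 1 detected 4 and WT host replicate 2 none, and sOVA host replicates 1, 2 and 3 detected 4, 6 and 0. Over all 1874 probes the same arrays detected 359 and 467, 397 and 346, and 336, 390 and 309, so WT host replicate 1 detected more probes than naive replicate 1 but fewer members. The seeds differed in where they were found. All 3 targets of the miR-200a seed, 6 of 10 of the miR-200b seed and 2 of 3 of the miR-203 seed were detected in naive cells, whereas both targets of the miR-205 seed were detected in sOVA host cells alone and none of the 3 miR-375 targets was detected anywhere. WT host replicate 2 and sOVA host replicate 3, which detected no member, were also the dimmest arrays. Their 75th percentile of signal over the 253 probes detected on all arrays was 3591 and 2729 intensity units, against 9281 to 15743 on the others. They lay in row 2 of the slide, together with naive replicate 2, which detected the most members.

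**Figure D1:**
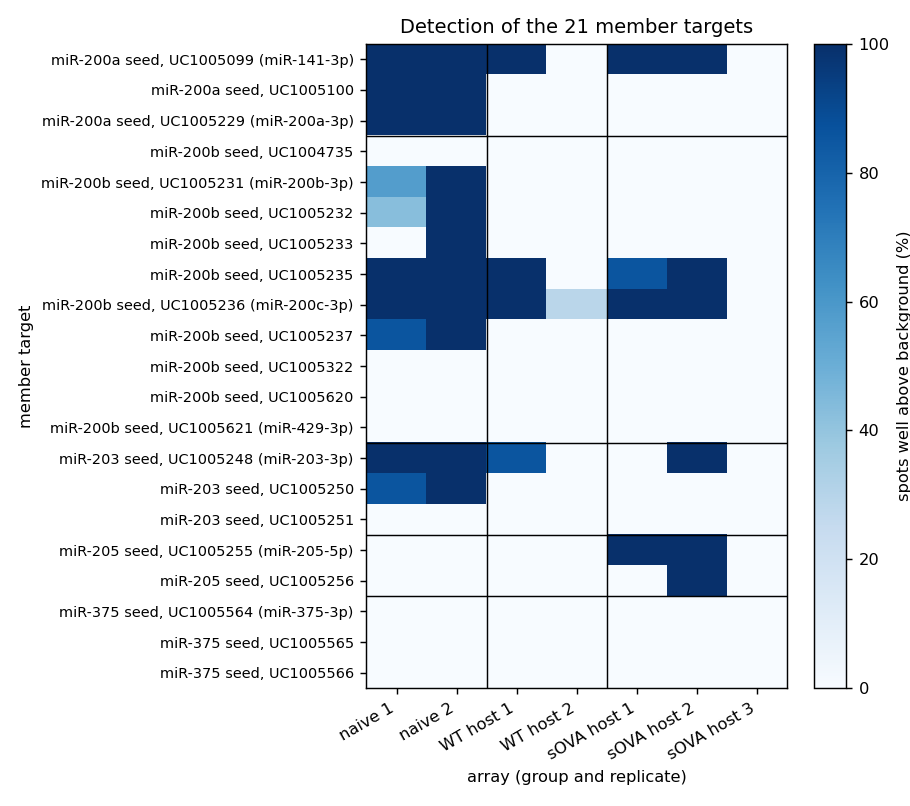
Detection of the 21 member targets (rows, grouped by seed) on the 7 arrays (columns), shaded by the percentage of a target's spots that were well above background. All 3 targets of the miR-200a seed and 6 of 10 of the miR-200b seed are dark in a naive column, the miR-205 targets appear on sOVA host replicates 1 and 2 only, the miR-375 rows are empty, and WT host replicate 2 and sOVA host replicate 3 reach 50% for no target.

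Levels below are the mean log2 intensity of a probe's spots minus the array's 75th percentile, so a level of -6 is far below the bright probes. All members were dim. On naive replicate 2, where the most were seen, the brightest member was miR-203-3p at 422 intensity units, and 58.0% of the 467 detected probes were brighter. The lowest level of a detected probe, which bounds what an array can show, was -6.96 and -8.27 for naive cells, -7.31 and -6.11 for the WT host, and -5.82, -7.03 and -5.20 for the sOVA host. Naive replicate 2 thus reached lowest of the 7 arrays. Where a spot had no signal, the deposited value is a substitute set by the scanner software, and this substitute also differs between arrays. The miR-375-3p target, at the substitute on every array, had a mean of -9.94 in naive cells, -8.89 in WT host cells and -8.32 in sOVA host cells without any signal.

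**Figure D2:**
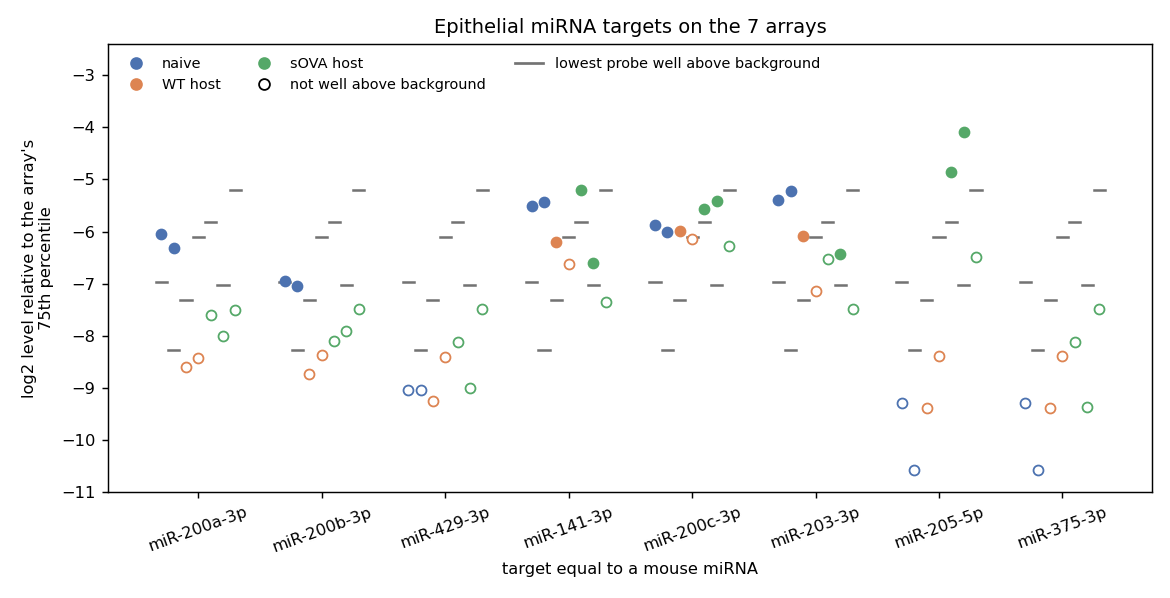
Log2 level relative to each array's 75th percentile (vertical axis) for the 8 targets equal to a mouse miRNA, with 1 point per array in the order naive, WT host and sOVA host. Open points were not well above background and grey dashes give the lowest detected probe of that array; miR-200a-3p and miR-200b-3p are filled in naive cells only, miR-141-3p and miR-200c-3p also on 3 activated arrays, and miR-205-5p on 2 sOVA host arrays.

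Among the 5 miRNAs of the family, those of the chromosome 4 cluster, miR-200a and miR-200b, were detected in naive cells and on no activated array. miR-200a-3p was at -6.04 and -6.32 in naive cells, where all spots were well above background, and at -8.61 and -8.43 in WT host cells and -7.60, -8.01 and -7.51 in sOVA host cells, where none was. In intensity units this is 180 and 197 in naive cells against 23.7 and 10.4 in WT host cells and 50.7, 43.1 and 15.01 in sOVA host cells. No activated array reached the naive level, but the detection limits of sOVA host replicates 1 and 3 (-5.82 and -5.20) lay above that level. The limit of WT host replicate 2 (-6.11) lay between the naive values. UC1005100, the near copy of miR-200a-3p, followed the same course, from -6.28 and -6.49 in naive cells to -8.82 and -8.41 in the WT host and -7.73, -8.32 and -7.50 in the sOVA host. For UC1005100 the limits of WT host replicate 2 and sOVA host replicates 1 and 3 lay above both naive levels.

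miR-200b-3p was at -6.95 and -7.04 in naive cells, with 57.1% and 100% of spots well above background. It was at -8.73 and -8.38 in WT host cells and -8.11, -7.92 and -7.49 in sOVA host cells, with no spot well above background. Its naive values lay above all activated values, but every activated value was undetected, and the naive level itself was close to the detection limit. The limits of WT host replicate 2 and sOVA host replicates 1 and 3 (-6.11, -5.82 and -5.20) lay above both naive levels. A level like that of naive cells would not have been detected on those arrays. UC1005237 was at -6.92 and -7.26 in naive cells, -9.32 and -8.40 in the WT host and -8.12, -8.42 and -7.48 in the sOVA host. The targets UC1005232 and UC1005233, which extend miR-200b-3p by 1 base, were detected on naive replicate 2 only. miR-429-3p, also of this cluster, was detected nowhere, with levels of -9.04 and -9.05 in naive cells and -9.25 to -7.49 in activated cells.

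A test was run on features, in which targets that contain one another are merged, and only on those that were detected throughout at least 1 group. This held for 8 of the 18 features formed by the members and for 342 of 1753 in all. In WT host against naive cells 4 of the 8 were called lower and 0 higher (limma, adjusted p under 0.05), where 5.85% of all features tested were called lower and 12.9% higher. Since members with these seeds entered the test through their naive arrays, a fall was the likelier direction and the count supports no more than the values above. The 4 called members were above background on no WT host array, so their p-values set naive signal against array background, and their fitted changes are not measured sizes. Against the detection limit, miR-200a-3p was at least 1.45-fold lower in WT host cells (fitted change -2.34 ± 0.30, SE, limma adjusted p = 0.00403). UC1005100 was at least 1.25-fold lower (fitted change -2.23 ± 0.36, limma adjusted p = 0.0106). The fitted changes were -1.56 ± 0.32 for miR-200b-3p (limma adjusted p = 0.019) and -1.77 ± 0.46 for UC1005237 (limma adjusted p = 0.0444). No lower bound of the fall could be given for either, because their naive means of -7.00 and -7.09 lay below the WT host detection limit of -6.71 (mean of 2 arrays).

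In sOVA host against naive cells 2 of 8 were called lower and 0 higher, where 5.56% of all features were called lower and 15.5% higher. Here too the members entered the test through their naive arrays, so the count supports no more than the values above. The called members were miR-200a-3p (fitted change -1.53 ± 0.27, SE, limma adjusted p = 0.0165) and UC1005100 (-1.46 ± 0.33, limma adjusted p = 0.027). Neither was above background on any sOVA host array, and the sOVA host limit of -6.02 lay above both naive means, so the size of a fall in the sOVA host was not measurable. miR-200b-3p had a change of -0.84 (adjusted p = 0.0768) and UC1005237 one of -0.92 (adjusted p = 0.149). These comparisons share the naive arrays. Scaling to all probes changed the split of all calls from 20 lower and 44 higher to 20 and 19 in the WT host, and from 19 and 53 to 44 and 24 in the sOVA host. Within slide row 1 the miR-200a-3p changes were -2.57 and -1.77 for the hosts, and within row 2 they were -2.11 and -1.19.

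The calls depended on the background correction and on single arrays. With normexp correction and an offset of 50, the miR-200a-3p change was -0.47 in the WT host and -0.41 in the sOVA host, and no member was called in either comparison. Over the 16 alternatives of each comparison its adjusted p ran from 0.0022 to 0.55 in the WT host and from 0.00797 to 0.556 in the sOVA host. Without naive replicate 1 no member was called in either comparison, and without naive replicate 2, WT host replicate 1 or WT host replicate 2 the WT host count was 1, miR-200a-3p. The sOVA host count was 0 without naive replicate 2, 1 without sOVA host replicate 1 or 2, and 4 without sOVA host replicate 3. The calls over all features moved with the same arrays: in the WT host they went from 64 to 20 and 18 without naive replicate 1 or 2 and to 27 and 17 without WT host replicate 1 or 2. In the sOVA host they went from 72 to 12 and 13 without naive replicate 1 or 2, to 44 and 45 without sOVA host replicate 1 or 2, and to 126 without sOVA host replicate 3. Without WT host replicate 2 the WT host bounds were at least 2.19-fold for miR-200a-3p and at least 1.90-fold for UC1005100 (the latter recomputed after the values were seen), and neither could be given without WT host replicate 1.

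**Figure D3:**
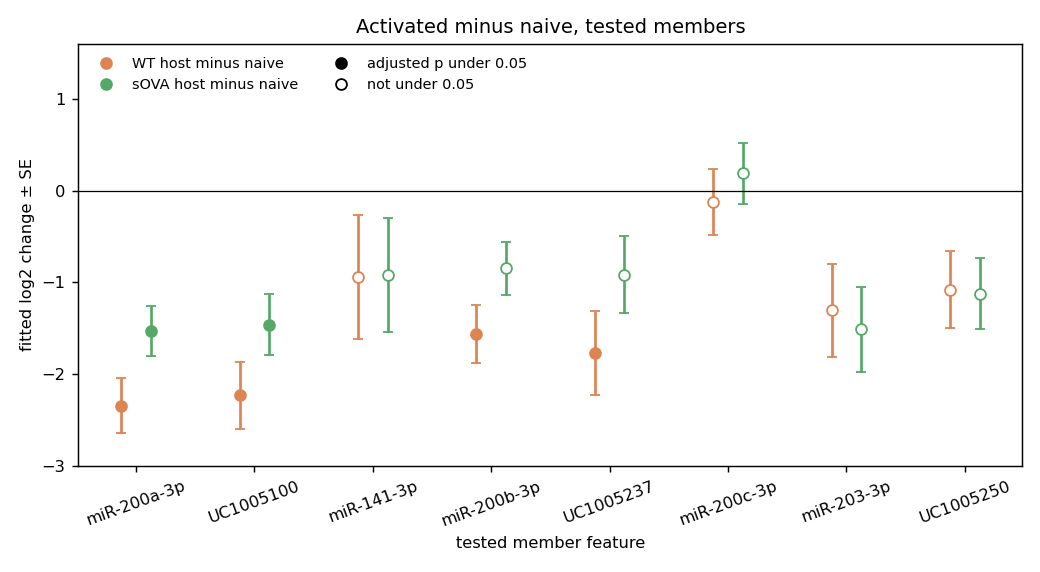
Fitted log2 change with its standard error (vertical axis) for the 8 tested member features, in WT host minus naive (orange) and sOVA host minus naive (green), from 7 arrays. Filled points had an adjusted p under 0.05: miR-200a-3p and UC1005100 in both comparisons, and miR-200b-3p and UC1005237 in the WT host only. For miR-200a-3p, UC1005100, miR-200b-3p, UC1005237 and UC1005250 the change is from naive signal to array background, since no activated array detected them. The difference between hosts passed for none of the 8.

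The chromosome 6 cluster, miR-141 and miR-200c, carries the same pair of seeds and was detected on 3 of the 5 activated arrays. miR-200c-3p was at -5.88 and -6.02 in naive cells, -5.99 and -6.14 in WT host cells and -5.57, -5.41 and -6.28 in sOVA host cells, and it was detected on naive replicates 1 and 2, WT host replicate 1 and sOVA host replicates 1 and 2. UC1005235, the same target without its last base, was detected on the same 5 arrays. The 3 groups overlapped. The change of miR-200c-3p was -0.12 ± 0.36 (SE, adjusted p = 0.81, limma) in the WT host and 0.19 ± 0.33 (adjusted p = 0.68) in the sOVA host, the latter turning to -0.63 with scaling to all probes and -0.56 with quantile normalization. miR-141-3p was at -5.51 and -5.43 in naive cells and at -6.19 and -6.63 in WT host cells. In sOVA host cells it was at -5.20, -6.60 and -7.36, so that sOVA host replicate 1 was above both naive arrays and replicate 3 was undetected. Its changes of -0.94 ± 0.68 (adjusted p = 0.348) and -0.91 ± 0.62 (adjusted p = 0.305) did not pass in any of the 16 alternatives.

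Whether the clusters moved unequally could not be measured. A comparison of miR-200a-3p with miR-141-3p and of miR-200b-3p with miR-200c-3p within arrays, added after the values were seen, was set aside, because the chromosome 4 targets were not above background on any of the 5 activated arrays.

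miR-203-3p was the brightest member on both naive arrays, at -5.39 and -5.22. It was at -6.08 and -7.14 in WT host cells and at -6.53, -6.43 and -7.49 in sOVA host cells, detected on WT host replicate 1 and sOVA host replicate 2. All activated values lay below both naive values, though no other activated array detected miR-203-3p. For sOVA host replicate 1 (-5.82) and WT host replicate 2 (-6.11) the detection limits lay below both naive levels. On sOVA host replicate 3 the limit of -5.20 lay above both, so a level like that of naive cells would not have been detected there. Neither change passed: -1.30 ± 0.51 (SE, adjusted p = 0.119, limma) in the WT host and -1.51 ± 0.47 (adjusted p = 0.0646) in the sOVA host. Both passed with the slide row as a block (adjusted p = 0.0495 and 0.0194, limma) and without both dim arrays, in a range over the 16 alternatives of 0.04 to 0.489 and 0.0132 to 0.249. Within row 1 the changes were -0.69 and -1.09, and within row 2 they were -1.92 and -2.27. Neither activated array of row 2 detected miR-203-3p, so the row 2 changes are not measured sizes. UC1005250 was detected on the naive arrays only and had changes of -1.08 (adjusted p = 0.118) and -1.12 (adjusted p = 0.0757, limma). Its naive mean of -6.73 lay below the mean detection limits of the WT host (-6.71) and the sOVA host (-6.02). No lower bound of a fall could therefore be given. UC1005251, which carries T11C and A21T relative to miR-203-3p, was detected on no array.

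miR-205-5p took another course and was detected in sOVA host cells only. Its intensity was 18.9 and 10.2 on the naive arrays and 13.9 and 10.7 on the WT host arrays, where every spot of naive replicates 1 and 2 and WT host replicate 1 carried the substitute value. On sOVA host replicates 1, 2 and 3 it was 338, 656 and 30.4. Replicates 1 and 2 had all spots well above background, whereas replicate 3 had none. The scaled levels were -9.29 and -10.59 in naive cells, -9.39 and -8.39 in the WT host, and -4.87, -4.08 and -6.49 in the sOVA host, and miR-205-5p was the brightest member on both arrays that detected it. UC1005256, its near copy, was at -6.78, -6.12 and -7.48 in the sOVA host, detected on replicate 2 only, with no signal on any other group's arrays.

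Against the detection limits, the sOVA host mean of miR-205-5p was higher by at least 5.54-fold against naive cells and by at least 2.96-fold against WT host cells. Only 2 of 3 sOVA host arrays were above background. The mean takes replicate 3 at its measured level though it was undetected, so these folds are not strict bounds. Over single arrays left out, the first bound ran from 3.53-fold (without naive replicate 2) to 8.82-fold (without sOVA host replicate 3; 8.71-fold without naive replicate 1). The second ran from 1.96-fold (without WT host replicate 1) to 4.71-fold (without sOVA host replicate 3; 4.49-fold without WT host replicate 2). The target was not detected on every array of any group and so was not in the main test. With all 1753 features tested, the only alternative that included it, the change from naive cells passed in limma (adjusted p = 0.00828) and the difference between the hosts did not (adjusted p = 0.53). In the same fit miR-375-3p, without signal, had a change of 1.62 from naive to sOVA host cells (limma, adjusted p = 0.0756). Both arrays that detected miR-205 lay in slide row 1, where the sOVA host mean was -4.47, against -9.29 on the naive array and -9.39 on the WT host array. In row 2 the levels were -10.59, -8.39 and -6.49 for naive, WT host and sOVA host cells.

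The miR-375 seed gave no signal. All 3 of its targets carried the substitute value in all spots on all 7 arrays, with intensities from 10.2 to 35.4. The other arms of the members' hairpins were looked up as well. Targets for miR-200a-5p, miR-200b-5p, miR-200c-5p, miR-141-5p and miR-203-5p were on the array and were detected on 0 of 7 arrays, and no probe matched miR-429-5p, miR-375-5p or miR-205-3p.

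Between the hosts, 0 of the 8 tested members and 0 of 342 features (0%) passed in limma. Without adjustment, 2 members (miR-200a-3p and miR-200b-3p) and 41 features in all had p under 0.05. miR-200a-3p had a difference of 0.81 (adjusted p = 0.332) and miR-200b-3p one of 0.72 (adjusted p = 0.399), sOVA host minus WT host, with both undetected on all 5 arrays. The substitute values alone gave the miR-375-3p target a difference of 0.57. The absence of calls depended on 1 array: without sOVA host replicate 3, the dimmest, 65 of 342 features and 0 members passed in limma.

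Other miRNAs known from epithelia, listed by seed (miR-192, miR-215, miR-194, miR-31, miR-184, miR-34b and miR-449a), gave 5 tested features, of which 0 rose and 0 fell in either host, with medians of -0.25 and -0.27. The brightest tested target of the list, UC1006079, was at -2.56 to -1.70 and did not pass (limma, adjusted p = 0.461 and 0.836). It carries the seed shared by miR-34b and miR-449a but equals neither mouse miRNA. The target equal to miR-449a-5p was detected on WT host replicate 1 only. miR-194-5p, known from intestine and liver, was detected on all 7 arrays at -5.13 to -4.34, and miR-192-5p on 5 arrays at -6.39 to -5.57. miR-31-5p, known from epithelium and from T cells, was detected on sOVA host replicates 1 and 2 only, the arrays that detected miR-205-5p. Its levels were -8.55 and -8.55 in naive cells, -7.43 and -7.26 in the WT host, and -5.43, -5.31 and -7.50 in the sOVA host. The detection limit of sOVA host replicate 3 (-5.20) lay above both detected levels, so a level like theirs would not have been detected there. The targets equal to miR-34b-5p, miR-184-3p and miR-215-5p were not detected on any array.

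T cell identity was read from 14 targets with the seeds of miR-142a-3p, miR-142a-5p, miR-181a-5p, miR-342-3p and miR-155-5p, of which 11 were detected on all 7 arrays. Of their 10 tested features 2 fell and 0 rose in the WT host, and 1 fell and 2 rose in the sOVA host (limma), where the shares of all features called lower and higher were 5.85% and 12.9% in the WT host and 5.56% and 15.5% in the sOVA host. miR-181a-5p, abundant in immature T cells, fell in the WT host (change -3.34, limma adjusted p = 0.013) and had a change of -1.64 in the sOVA host (adjusted p = 0.0749). miR-155-5p, known to be induced by T cell activation, rose in the sOVA host (change 4.05, limma adjusted p = 0.0221) and had a change of 2.63 in the WT host (adjusted p = 0.0872). miR-342-3p had changes of 0.20 and 0.16 that did not pass. miR-142a-3p, a miRNA of blood cells, was at 2.22 and 1.89 in naive cells, 1.09 and 0.50 in the WT host, and 1.55, 0.00 and -0.43 in the sOVA host, and its changes did not pass. Markers of other cells were read as well. The myeloid miR-223-3p was at -3.05 and -2.80 in naive cells, -5.59 and -6.34 in the WT host and -6.60, -5.22 and -4.99 in the sOVA host. It was called lower in both hosts (adjusted p = 0.0161 and 0.0221, limma). Of the activated arrays, WT host replicate 1 and sOVA host replicates 2 and 3 detected it. The endothelial miR-126a-3p was detected on naive replicate 2 only, with all 3 of its targets, at -6.13, and was not tested. On sOVA host replicate 3 it was at -5.86, where a limit of -5.20 left it undetected. Erythroid miR-451a was detected on all arrays, with a summed list level of -0.96 and -1.84 in naive cells, -3.30 and -1.79 in the WT host and -1.08, -4.08 and 0.94 in the sOVA host, and miR-144-3p on none. The miR-451a feature did not pass in either host (limma, adjusted p = 0.599 and 0.993). The 4 neural targets with the miR-9 seed were not detected on any array. The part of other cells, and of array brightness, in the levels of miR-200a, miR-200b and miR-205 was not tested.

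The features most like the brightest tested member of each miR-200 seed over the 7 arrays were, for miR-141-3p, UC1005005 (Pearson r = 0.944), UC1005695 (r = 0.933) and miR-142a-3p (r = 0.932). For miR-200c-3p they were UC1004768 (r = 0.982), UC1004775 (r = 0.978) and UC1005696 (r = 0.969). They were picked as the highest among 334 tested features that share array, labelling and scaling, and the values describe these arrays only.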

How the data were processed

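Total RNA (250 ng) of 7 samples was labelled with Cy3 and read on 1-colour Agilent arrays of 1 slide. The deposited values are linear spot intensity after spatial and multiplicative detrending, per the file headers, which record no scaling across arrays. The deposited files also mark spots given a substitute signal. The submitters' processing notes name Agilent Feature Extraction 10.6, the file headers 9.5.1.1. The value table was not used, since no member could be matched in it.

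Control and outlier-flagged spots were left out, and spots of a probe averaged as log2 intensity minus the array's 75th percentile over 253 probes. No spot was saturated. limma 3.58.1 (R 4.3.3) was fitted to all arrays with group means. The p-values were Benjamini-Hochberg adjusted over 342 features (threshold 0.05) and checked on simulated data. The simulated data held normal noise without detection limits or substitute values, so the check does not cover members undetected in a group. "At least" folds compare the brighter mean with the dimmer group's lowest detected level or its own. Text names every tested member, the brightest per seed, detected members and list examples. The number of arrays limits precision. Members, lists and alternatives were chosen with earlier results of these data known. Replicate numbers were not used to pair the arrays in the main fit. Correlations of same-numbered deviations from the group means were -0.60 to 0.35. They cannot decide whether the numbers pair the arrays, since in a group of 2 arrays the deviations mirror each other.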

Additional observations from a re-analysis of the deposited data

How the results depend on the processing

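The number of tested members called in WT host against naive cells (4) was 0 with normexp correction and 0 without a detection filter, and it ran from 0 to 5 over single arrays left out. The calls over all features, 64 as reported, were 41, 16 and 17 to 158 under these settings. The number in sOVA host against naive cells (2) was 0 with normexp correction, 6 without both dim arrays, and from 0 to 4 over single arrays left out; without a detection filter it was 2, but these were the miR-205 targets. The calls over all features, 72 as reported, were 57, 151, 12 to 126 and 25 under these settings, so with arrays left out the member counts moved with them. Scaling, merging, the stricter detection and the slide row gave 3 to 5 and 2 to 3. With the replicate number as a block (replicate block) the counts were 4 and 3. Whether the numbers pair the arrays is not known, and sOVA host replicate 3, alone in its block, has no weight in this fit. Between the hosts 0 members were called under any alternative that left at least 2 arrays in each group. The calls over all features between the hosts, 0 as reported, were 65 without sOVA host replicate 3 and 27 with the replicate block. The number of members detected was 13 at 50% and at 80% of spots.

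Scaling to all probes moved the median of all features from 0.27 to -0.245 in the WT host and from 0.11 to -0.704 in the sOVA host. Of 381 recomputed changes of tested members, 317 kept their direction and side of the threshold, 33 lost and 13 gained a call, and 18 turned sign; none that turned had an adjusted p under 0.05 by limma under that setting. With normexp correction miR-200b-3p turned to 0.037 (WT host) and 0.075 (sOVA host), miR-200c-3p to 0.30 (WT host), UC1005237 to 0.049 (sOVA host) and UC1005250 to 0.12 (WT host). In the sOVA host miR-200c-3p turned to -0.63 (all probes) and -0.56 (quantile). Between the hosts miR-141-3p turned to -0.28 (all probes), -0.22 (quantile), -0.089 (slide row), -0.19 (without WT host replicate 2) and -0.57 (without sOVA host replicate 1). miR-203-3p turned to 0.13 (replicate block), 0.32 (without WT host replicate 1) and 0.13 (without sOVA host replicate 3), and UC1005250 to 0.46, 0.092 and 0.018 without WT host replicate 1, sOVA host replicate 1 and sOVA host replicate 2. Over single arrays left out, these host differences ran from -0.57 to 0.51 for miR-141-3p, from -0.74 to 0.32 for miR-203-3p and from -0.54 to 0.46 for UC1005250. The cause was not tested. Signal over background limits every member, since none was detected on all arrays.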
